A study of Sus scrofa with 31 samples.

Results

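Hearts held for 24 h under the condition labelled HOPE were compared with the same hearts at 0 h. HOPE is usually read as hypothermic oxygenated perfusion, in which a cold oxygenated solution is pumped through the coronary vessels of a donor heart, and the labels do not spell the name out. The 2 groups were HOPE 24 h and HOPE 0 h, with 1 myocardial biopsy each from pigs (Sus scrofa) 2, 4 and 6, so that 6 of the 31 samples of the series enter the comparison, and the sample titles give the pig in every case. The HOPE hearts were also biopsied at 12 and 48 h, and 3 further hearts (pigs 1, 3 and 5) were followed over the same times under the condition labelled SCS, usually read as static cold storage, in which the heart lies in cold solution without flow. The labels give no strain, age, genotype or perfusate for any group. Of 21313 genes listed, the 14141 with a mean of at least 10 normalised counts over the 24 libraries of this arm were tested.

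Cooling slows the metabolism of an excised heart, and without flow its oxygen is used up, ATP falls and acid collects; perfusion with oxygenated fluid is meant to keep oxidative metabolism running at a low rate. Most of the RNA of myocardium comes from cardiomyocytes, which hold the contractile filaments, the calcium cycling machinery and many mitochondria. Endothelial cells, smooth muscle cells, fibroblasts and resident leukocytes supply the rest, and blood left in the vessels adds transcripts of red cells and circulating leukocytes. A biopsy reports all of these at once, and fewer cells of a type and less RNA per cell cannot be told apart in it.

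The 6 libraries held 25755753, 34646234 and 24139691 recovered reads at 24 h and 27808606, 22583205 and 28263661 at 0 h in pigs 2, 4 and 6. Cardiomyocytes are the labelled cell type, and their markers were by far the most abundant, yet markers of endothelium, macrophages and lymphocytes were present in every library. The 0 h library of pig 6 stood apart. Its 18 measured cardiomyocyte markers summed to 1267645 normalised counts, against 1579395 and 1869201 in the other 0 h libraries, and its 22 endothelial markers to 84420.5, against 35954 and 27831. The 24 h libraries of pigs 2, 4 and 6 held 1700565, 1731744 and 1992811 for the cardiomyocyte and 40763, 28166 and 47031 for the endothelial markers. The SD of the log2 change over all genes was 0.454 in pig 2, 0.553 in pig 4 and 0.752 in pig 6. Many results that rest on pig 6 are therefore also given without it. Genes for which no such value is given may rest on pig 6 as well. For example, the fold change of DLST was 0.69, or 0.29 without pig 6, and that of CD8A -1.78, or -0.93.

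No gene passed the adjusted threshold of 0.05 for 24 h against 0 h of HOPE (0% of 14141 genes, limma with the pig as a block; smallest adjusted p = 0.173). At an unadjusted p under 0.05, 776 genes were higher at 24 h (5.49%) and 421 lower (2.98%), together 1197 (8.46%), and edgeR on the recovered reads had 0 genes past the adjusted threshold and 1233 at the unadjusted one. DESeq2 on the same reads passed 5 genes, all higher at 24 h. The log2 change was above 0 for 7468 genes (52.8%) and below 0 for 6673 (47.2%). The median of all genes was 0.018, with the 5th and 95th percentiles at -0.61 and 0.47, and 75 genes lay above 1 and 229 below -1. In all 3 hearts 2295 genes were higher (16.2%) and 1651 lower (11.7%), while for 351 genes (2.48%) every 24 h value lay above every 0 h value and for 344 (2.43%) below. These shares are the background for the counts given for each gene group, and every fold change below is a difference in log2(normalised count + 1) ± SE.

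**Figure D1:**
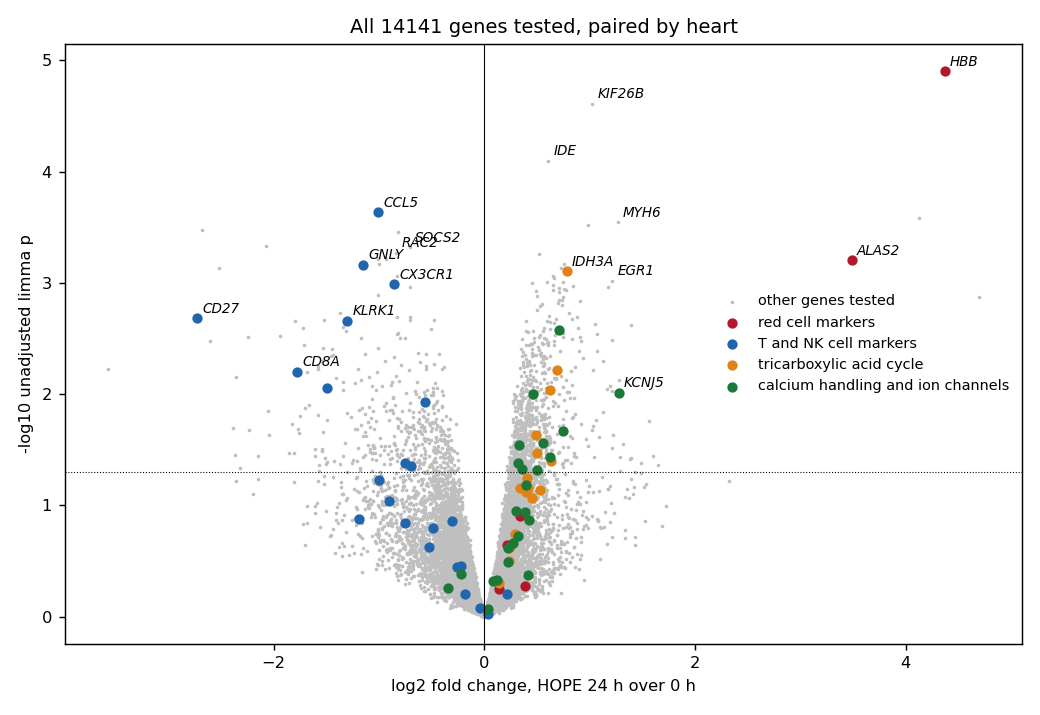
Log2 fold change of HOPE 24 h over 0 h (x axis) against the -log10 of the unadjusted limma p (y axis) for 14141 genes, with the dotted line at an unadjusted p of 0.05 and 4 gene lists in colour. HBB lies farthest up at 4.37, the T and NK cell markers lie mostly left of 0, and the tricarboxylic acid cycle genes all lie right of 0.

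Red cell transcripts had the highest fold changes among genes with a symbol. HBB, the beta chain of adult haemoglobin (chromosome 9, 4800683 to 4801941, Sscrofa11.1, protein coding), was at 1892, 89.4 and 254 normalised counts at 24 h in pigs 2, 4 and 6, against 7.63, 14.7 and 35.6 at 0 h. The groups did not overlap, and pig 2 at 24 h was far above the other hearts. The fold change was 4.37 ± 0.74 (limma, adjusted p = 0.173), and 2.66 without pig 2. HBB passed under total-count scaling, at 4.30 (limma, adjusted p = 0.0023), and its adjusted p ranged from 0.0023 to 0.806 over 16 alternatives. ALAS2, the erythroid enzyme that starts haem synthesis (chromosome X, 47871519 to 47896041), was at 406, 27.7 and 43.0 at 24 h, against 5.34, 12.6 and 3.24 at 0 h, again without overlap, and differed by 3.49 ± 0.85 (limma, adjusted p = 0.429) and by 2.23 without pig 2. Pig 2 was again the highest. A pair of genes with no symbol in the tables used, named after their values were seen, were also highest in pig 2 at 24 h. ENSSSCG00000007978 was at 1127, 54.6 and 60.4 at 24 h, against 2.29, 16.8 and 11.3 at 0 h, and ENSSSCG00000014727 was at 221, 9.93 and 6.14 at 24 h and listed at 0 in all 3 hearts at 0 h.

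Of 20 red cell markers on the list, 11 were found and 6 had enough counts to be tested. All 6 were positive, with a median of 0.36. HBB and ALAS2 were the 2 higher in all 3 hearts (beside 16.2% of all genes) and the 2 with an unadjusted p under 0.05 (beside 5.49%). ALAS2 reached the mean of 10 needed for testing largely through the HOPE libraries after 0 h, where it was high. In SCS pigs 1, 3 and 5 it was at 4.16, 3.92 and 8.40 at 0 h and 5.78, 6.59 and 16.3 at 24 h. Its place among the tested markers is therefore not separate support for the list. The 4 others were smaller: the membrane protein gene EPB42 stood at 0.39 ± 0.60, and BPGM, which makes the 2,3-bisphosphoglycerate that tunes oxygen release, at 0.34 ± 0.21. The transferrin receptor TFRC and the haem-forming ferrochelatase FECH, which other cells also use and which were chosen after their values were seen, had fold changes of 0.14 ± 0.24 and 0.21 ± 0.17. Among the markers too low to test, AHSP, the chaperone of alpha-globin, was at 13.2, 4.96 and 0 normalised counts at 24 h in pigs 2, 4 and 6, against 0, 0 and 0 at 0 h. The anion exchanger SLC4A1 was at 3.53, 0 and 0, against 0, 0 and 0, and the erythroid transcription factor GATA1 at 1.76, 1.42 and 0, against 0, 0 and 0. In pig 2 at 24 h these values rested on 15, 4 and 2 recovered reads. The alpha-like globin HBM had 34, 7 and 14 recovered reads at 24 h, against 0, 11 and 10 at 0 h. Reads from near-identical beta-like globin copies may have been split between genes in counting, so the globin values are uncertain to that extent.

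The red cell difference was present at 12 h already. HBB averaged 4.02 above 0 h at 12 h and 3.70 at 48 h on the log2 scale, beside 4.37 at 24 h, and these values share the 0 h libraries. At 12 h the 3 hearts were nearly alike, at 278, 279.5 and 266 normalised counts, whereas at 24 h they spread from 89.4 to 1892. In SCS hearts, HBB was at 30.4, 54.1 and 71.0 at 24 h and 22.9, 18.0 and 55.2 at 0 h in pigs 1, 3 and 5. The difference in change, HOPE minus SCS, was 3.61 ± 1.05 (limma, adjusted p = 0.326).

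**Figure D2:**
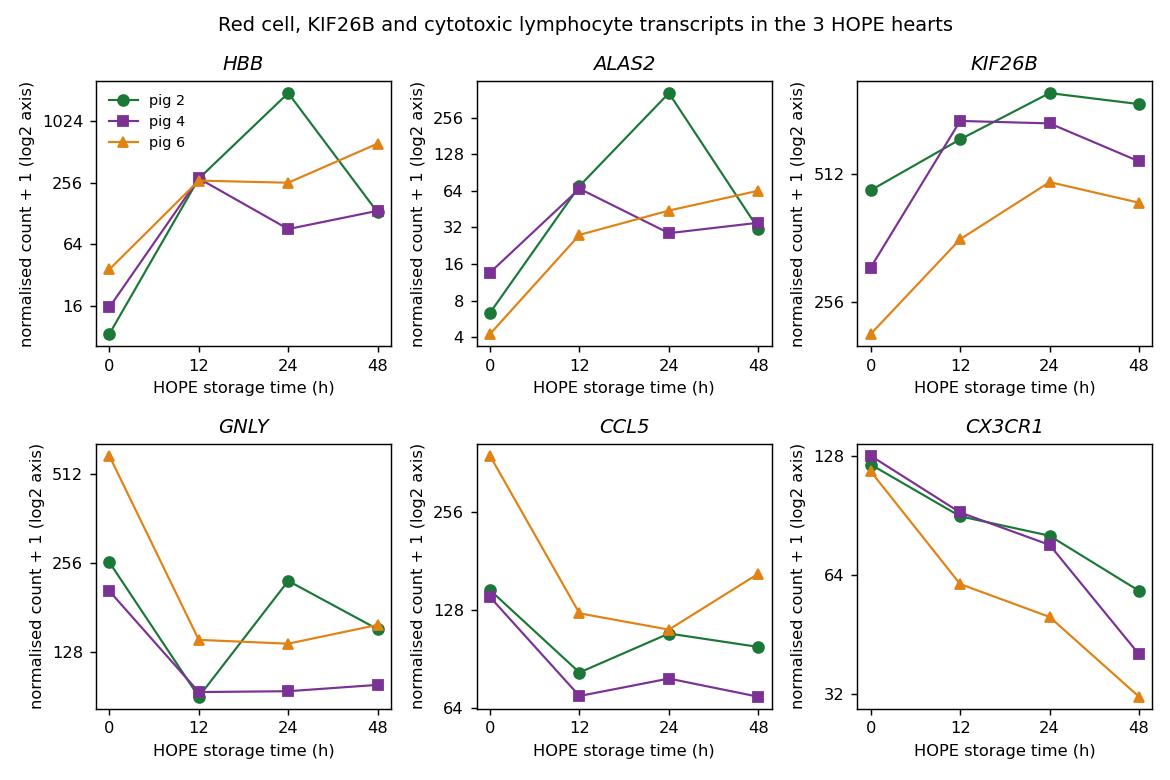
Normalised count + 1 on a log2 axis at 0, 12, 24 and 48 h of HOPE, with a line for each of pigs 2, 4 and 6. HBB, ALAS2 and KIF26B are lowest at 0 h in every heart, and GNLY, CCL5 and CX3CR1 are highest at 0 h in every heart.

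KIF26B had the second smallest p. It encodes an unconventional kinesin that takes part in cell adhesion and polarity (chromosome 10, 17708365 to 18220052). Its level was 795, 674 and 490.2 normalised counts at 24 h, against 469, 308 and 215 at 0 h. The groups did not overlap and every heart was higher at 24 h, by 0.76, 1.13 and 1.19 in pigs 2, 4 and 6. The fold change was 1.03 ± 0.18 (limma, adjusted p = 0.173), and it lay between 0.94 and 1.16 when each pig was left out in turn. IDE, the insulin-degrading metalloprotease (chromosome 14, 103992035 to 104106571), had 1316, 1353 and 743 at 24 h, against 1016, 826 and 447 at 0 h. The groups overlapped, with pig 6 lower at both times, but all 3 hearts were higher at 24 h, by 0.37, 0.71 and 0.73. Its fold change was 0.61 ± 0.12 (limma, adjusted p = 0.377), and DESeq2 on recovered reads passed it at 0.60 (adjusted p = 0.0021, with 0.0021 to 1 over 16 alternatives).

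Other genes with small p or large positive fold changes were of mixed roles. MAP4, a microtubule-associated protein that is abundant in muscle, was at 13288, 12767 and 10079 at 24 h, against 10191, 9338 and 6066 at 0 h, a difference of 0.52 ± 0.13 (limma, adjusted p = 0.429; 0.0206 by DESeq2, with 0.0206 to 1 over the alternatives). PTGFR, the receptor for prostaglandin F2 alpha, was at 241, 613 and 207, against 129.6, 332 and 90.7, and its differences of 0.89, 0.88 and 1.18 in the 3 hearts were close to each other. LPP, a focal adhesion protein, had 194, 129.8 and 57.3 at 24 h, against 58.7, 48.2 and 26.7 at 0 h, with a fold change of 1.40 ± 0.40. The groups did not fully separate for LPP, since pig 6 at 24 h lay below pig 2 at 0 h.

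The glutamate transporter gene SLC1A2 differed by 1.21 ± 0.36 and the protein kinase C gene PRKCA by 1.07 ± 0.33. SMYD1, a muscle methyltransferase needed for sarcomere assembly, differed by 1.07 ± 0.31, and PROB1, a proline-rich protein of basic type, by 1.19 ± 0.40. For these 4 genes the 3 hearts were higher at 24 h by unequal amounts, and pig 6 differed most. SMYD1 differed by 0.022, 1.03 and 2.15 in pigs 2, 4 and 6, and PROB1 by 0.059, 0.60 and 2.91. Without pig 6 their fold changes were 0.53 and 0.33, 0.64 for PRKCA and 0.96 for SLC1A2.

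Heart muscle genes tended to be higher at 24 h, most of all in pig 6. MYH6, the fast alpha heavy chain of cardiac myosin, was at 27681, 63223 and 10326 normalised counts at 24 h, against 23032, 31997 and 1767 at 0 h. All 3 hearts were higher at 24 h, by 0.27, 0.98 and 2.55 in pigs 2, 4 and 6, while the groups overlapped. The fold change was 1.26 ± 0.28 (limma, adjusted p = 0.429), 0.62 without pig 6, and DESeq2 passed it at 1.17 (adjusted p = 0.0353, with 0.0353 to 1 over the alternatives). MYH7, the slow beta chain that dominates the ventricle of large mammals (chromosome 7, 75650841 to 75672908), was at 617450.0, 496458 and 493444, against 528134, 510289 and 179022, a difference of 0.55 ± 0.30 that came to 0.093 without pig 6. MYH6 and MYH7 are close paralogs and their reads may have been split in counting.

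The 18 sarcomere genes tested had a median of 0.27, with 15 positive. An unadjusted p under 0.05 was found for 3 (beside 5.49% of all genes), and 0 passed the adjusted threshold in limma. Z-disc alpha-actinin ACTN2 differed by 0.65 ± 0.23 and the M-band protein MYOM1 by 0.57 ± 0.18. In pigs 2, 4 and 6 the list medians were 0.10, -0.087 and 0.68, and without pig 6 the list median was -0.014 with 8 of 18 positive. The list difference was largest in pig 6, whose 0 h library was low in cardiomyocyte markers. Those markers include contractile genes such as MYH7, so the low sum and the list difference are not separate observations.

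Genes of calcium handling and ion channels had a positive list median in every heart, at 0.18, 0.33 and 0.53 in pigs 2, 4 and 6. Of 24 tested, 22 were positive, 15 were higher in all 3 hearts (beside 16.2% of all genes), 10 had an unadjusted p under 0.05 (beside 5.49%), and 0 passed the adjusted threshold; the median was 0.34. ATP2A2, the SERCA pump that returns calcium to the sarcoplasmic reticulum (chromosome 14, 31674659 to 31744981), was at 72380.3, 90555 and 37231 at 24 h, against 61017, 52187 and 17543 at 0 h, a difference of 0.71 ± 0.20 (limma, adjusted p = 0.431). RYR2, the calcium release channel, was at 25899, 28756 and 11597, against 18817, 16209 and 7763, with differences of 0.46, 0.83 and 0.58 in the 3 hearts. The values of RYR2 overlapped between the times. KCNJ5, a subunit of the acetylcholine-gated potassium channel (chromosome 9, 55836777 to 55861288), was at 1849, 2959 and 1261, against 985, 1138 and 434; its groups did not overlap and the fold change was 1.27 ± 0.44 (limma, adjusted p = 0.486). CASQ2, the calcium store protein, differed by 0.75 ± 0.30, of which pig 6 held 2.00 and pigs 2 and 4 held 0.10 and 0.15. Without pig 6 the list median was 0.20, with 20 of 24 positive and 2 at an unadjusted p under 0.05.

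Enzymes of the tricarboxylic acid cycle, the mitochondrial pathway that oxidises acetyl-CoA, were all positive, at 16 of 16 with a median of 0.43. Higher in all 3 hearts were 9 (beside 16.2% of all genes), and 6 had an unadjusted p under 0.05 (beside 5.49%). IDH3A, a subunit of isocitrate dehydrogenase (chromosome 7, 47759436 to 47778948), was at 3955, 4493 and 1085 normalised counts at 24 h, against 3516, 2989.7 and 360.3 at 0 h. It differed by 0.78 ± 0.20 (limma, adjusted p = 0.429), and by 0.38 without pig 6. DLST and PDHA1, which serve the oxoglutarate and pyruvate dehydrogenase steps, differed by 0.69 ± 0.22 and 0.63 ± 0.22. The list medians were 0.082, 0.19 and 1.03 in pigs 2, 4 and 6, and without pig 6 the median was 0.14, with 13 of 16 positive and 1 at an unadjusted p under 0.05.

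Fatty acid uptake and oxidation, the main fuel route of the adult heart, followed the same order, with medians of 0.025, 0.072 and 0.95 in pigs 2, 4 and 6. Of 22 tested, 21 were positive, with a median of 0.36, and 2 had an unadjusted p under 0.05 (beside 5.49% of all genes). These were ACSL1, which activates fatty acids (0.62 ± 0.21), and HADH, a beta-oxidation dehydrogenase (0.53 ± 0.22); ACADL and HADHB stood at 0.42 ± 0.23 and 0.43 ± 0.30. Without pig 6 the median was 0.070, and these 4 genes came to 0.38, 0.16, 0.10 and 0.14 in that order. Summed over their measured members, the tricarboxylic acid cycle genes held 199134, 240860.3 and 211599 normalised counts at 24 h in pigs 2, 4 and 6, and 184324, 212039 and 96142 at 0 h, so the low value was again the 0 h library of pig 6. The part of cardiomyocyte content in these lists was not tested.

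The natriuretic peptide genes, which cardiomyocytes turn on under stretch, went in opposite directions between hearts. NPPB was at 93.4, 4.96 and 355 normalised counts at 24 h, against 656, 255 and 148 at 0 h, so pigs 2 and 4 were lower at 24 h and pig 6 was higher. The fold change was -2.32 ± 1.09 (limma, adjusted p = 0.584), and it lay between -4.11 and -0.77 when each pig was left out. NPPA was at 345, 282 and 1593, against 2080.1, 3679 and 417, with the same split between hearts and a fold change of -1.45 ± 1.06. Of the 12 stretch genes tested, 8 were positive, with a median of 0.20. In all 3 hearts 1 was higher (beside 16.2% of all genes) and 0 lower (beside 11.7%). The list medians were 0.098, -0.77 and 1.17 in pigs 2, 4 and 6. Without pig 6 the median was -0.22, with 3 positive and 9 negative, and without pig 4 it was 0.70, so the sign of the list rested on single hearts. XIRP1 and XIRP2, actin-binding proteins of the intercalated disc, stood at 1.09 ± 0.44 and 0.79 ± 0.52. XIRP1 came to 0.055 without pig 6 and to 1.72 without pig 4, and NPPA to -3.15 and -0.33.

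T and NK cell markers had a negative list median in every heart. Of 30 markers, 28 were found and 23 tested; 21 were negative, 15 were lower in all 3 hearts (beside 11.7% of all genes), for 8 every 24 h value lay below every 0 h value (beside 2.43%), and 10 had an unadjusted p under 0.05 (beside 2.98%). No marker passed the adjusted threshold (limma; 0 by edgeR and DESeq2 as well). The median was -0.75, with -0.30, -0.44 and -1.22 in pigs 2, 4 and 6, and -0.32 with 20 of 23 negative when pig 6 was left out. The summed level of the 28 markers was 1499, 960.2 and 1483 normalised counts at 24 h in pigs 2, 4 and 6, against 1764, 1360.2 and 3148 at 0 h.

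CCL5, a chemokine made by cytotoxic lymphocytes (chromosome 12, 39652731 to 39659121), was at 108, 78.0 and 111 at 24 h, against 146, 139 and 379 at 0 h. The groups did not overlap, and the fold change was -1.01 ± 0.22 (limma, adjusted p = 0.429), or -0.64 without pig 6. GNLY, the granule protein granulysin (chromosome 3, 59067327 to 59072034), was at 221, 92.9 and 135, against 256, 204 and 589. Every heart was lower at 24 h, although pig 2 differed by only -0.21; the fold change was -1.15 ± 0.28 (limma, adjusted p = 0.429), or -0.67 without pig 6. CX3CR1, the fractalkine receptor of cytotoxic cells and some monocytes (chromosome 13, 23944386 to 23957567), was at 79.3, 75.2 and 49.1, against 120.5, 127 and 116, which did not overlap, with a fold change of -0.85 ± 0.22 (limma, adjusted p = 0.429).

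KLRK1, the activating receptor NKG2D, was at 26.4, 18.4 and 28.7 at 24 h, against 47.3, 47.2 and 101 at 0 h, and CTSW, a cathepsin of cytotoxic granules that was not on the list, at 78.4, 59.6 and 51.2, against 106, 96.4 and 194. Neither overlapped, and they differed by -1.30 ± 0.37 and -1.01 ± 0.24. The low-count genes had the largest fold changes: the co-stimulatory receptor CD27 differed by -2.72 ± 0.76 at 0.881, 4.25 and 0, against 11.4, 18.9 and 10.5, and the T cell co-receptor CD8A by -1.78 ± 0.58 at 23.8, 24.1 and 9.21, against 58.7, 36.7 and 113. TBX21, the T-bet transcription factor, differed by -1.50 ± 0.51 overall and by -0.27 without pig 6. CD4 and the granzyme genes GZMA and GZMK, chosen after their values were seen, were near 0, at -0.044 ± 0.21, 0.22 ± 0.44 and 0.032 ± 0.57. RAC2, a small GTPase of blood cells, and MAP3K8, a kinase of inflammatory signalling, were among the 10 smallest p values: RAC2 was at 107, 111 and 93.1, against 164, 165 and 235 (-0.83 ± 0.20), and MAP3K8 at 59.9, 50.3 and 69.6, against 88.5, 76.5 and 172 (-0.81 ± 0.19), both without overlap.

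Macrophage and monocyte markers had no common sign. Of 18 tested, 10 were positive and 8 negative, with a median of 0.056 and 0 at an unadjusted p under 0.05. The mannose receptor MRC1 was at 920.1, 602 and 482 at 24 h, against 599, 424 and 362 at 0 h, higher in each heart (0.51 ± 0.28; limma, adjusted p = 0.649), and CD86, AIF1 and MS4A7 stood at -0.31 ± 0.22, -0.31 ± 0.21 and 0.46 ± 0.73. CD86 came to -0.014 without pig 6, and AIF1 to -0.094 without pig 4.

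**Figure D3:**
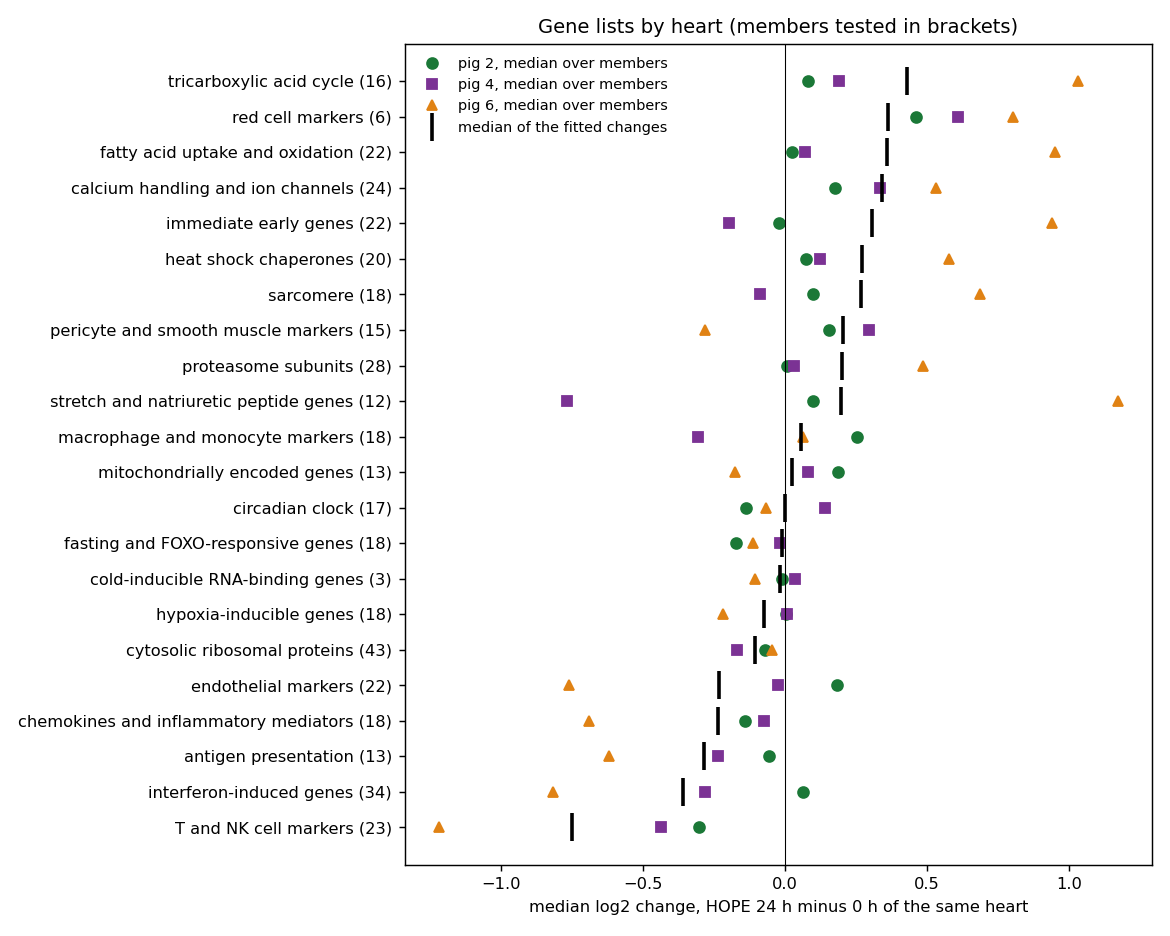
Median log2 change from 0 to 24 h of HOPE over the tested members of 22 gene lists (rows, number tested in brackets), with 1 symbol for each of pigs 2, 4 and 6 and a bar for the median of the fitted changes. Pig 6 lies farthest from 0 in the sarcomere, fatty acid, interferon-induced and T and NK cell lists, among others. Left of 0 in all 3 hearts lie the T and NK cell, ribosomal, antigen presentation, chemokine and fasting lists. Right of 0 in all 3 lie the red cell, calcium, tricarboxylic acid cycle, fatty acid, heat shock and proteasome lists.

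Interferon-induced genes, the antiviral effectors switched on by interferons, were mostly negative at 24 h, at 33 of 34 with a median of -0.36. Lower in all 3 hearts were 13 (beside 11.7% of all genes), and 11 had an unadjusted p under 0.05 (beside 2.98%). The medians were 0.064, -0.28 and -0.82 in pigs 2, 4 and 6, so pig 2 had the opposite sign, and without pig 6 the median was -0.13 with 0 at an unadjusted p under 0.05. The chemokine CXCL10 was at 345, 528 and 284 normalised counts at 24 h, against 390.4, 730.4 and 789 at 0 h, a difference of -0.71 ± 0.25, and CXCL9 at 178, 338 and 174, against 387, 326 and 461, a difference of -0.82 ± 0.32. IFIT2, which binds viral RNA, and PARP14, an ADP-ribosyltransferase, differed by -0.71 ± 0.28 and -0.74 ± 0.31 and were lower in every heart.

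The 13 antigen presentation genes tested were all negative, with a median of -0.28. Of these, 7 were lower in all 3 hearts (beside 11.7% of all genes) and 2 had an unadjusted p under 0.05 (beside 2.98%). The list medians were -0.057, -0.23 and -0.62 in pigs 2, 4 and 6, and without pig 6 the median was -0.19, with 12 of 13 negative and 0 at an unadjusted p under 0.05. CD74, the invariant chain of class II molecules, was at 10041, 8259 and 14903, against 9589, 12064 and 22429.6, a difference of -0.36 ± 0.16, and the class II chaperone genes SLA-DMA and SLA-DOA differed by -0.39 ± 0.16 and -0.38 ± 0.19. Of 18 chemokine and inflammatory genes tested, 15 were negative, with a median of -0.23, or -0.028 without pig 6. The chemokine CCL3L1 stood at -0.86 ± 0.49 and PTGS2, the inducible cyclooxygenase, at -0.73 ± 0.82. PTGS2 came to -0.0053 without pig 6 and to -1.24 without pig 2. In these 3 lists, too, the 0 h library of pig 6 had the highest sum of the 6 libraries. Interferon-induced genes summed to 20465, 12623 and 17943 normalised counts at 24 h in pigs 2, 4 and 6, against 19833, 14723 and 31417 at 0 h.

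Of the endothelial markers all 22 were negative, with a median of -0.23, yet 0.066 without pig 6. Lower in all 3 hearts were 2 (beside 11.7% of all genes), and 0 had an unadjusted p under 0.05 (beside 2.98%). ROBO4, a guidance receptor of vessels, was at 735, 519.8 and 870.0, against 659, 592 and 1890.4, and EGFL7, a secreted endothelial protein, at 1027, 762 and 1559, against 858, 1062 and 2706, with the 0 h library of pig 6 highest for both. MMRN2 and TIE1 stood at -0.35 ± 0.41 and -0.31 ± 0.24, and at -0.015 and -0.11 without pig 6.

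Among smooth muscle and pericyte genes CNN1 stood out. This gene for calponin, which binds actin in contractile smooth muscle (chromosome 2, 70183370 to 70190756), was at 477, 1119.7 and 1084 normalised counts at 24 h, against 411, 468 and 340.0 at 0 h, with no overlap and a fold change of 1.05 ± 0.30 (limma, adjusted p = 0.431). The smooth muscle myosin MYH11 and the actin ACTA2 were higher in pigs 2 and 4 and lower in pig 6, with fold changes of 0.74 ± 0.45 and 0.46 ± 0.31 that came to -0.079 and -0.021 without pig 4, and leiomodin LMOD1 stood at 0.37 ± 0.35. In each direction 1 gene of the list of 15 had an unadjusted p under 0.05 (beside 5.49% of all genes higher and 2.98% lower). The list had a median of 0.21, with 12 positive. Its medians were 0.16, 0.30 and -0.28 in pigs 2, 4 and 6. Without pig 4 the median was 0.0064 with 8 positive, and with quantile normalization it was 0.082 with 9 positive.

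SOCS2, a feedback inhibitor of growth hormone signalling (chromosome 5, 89581081 to 89587424), was at 299.7, 303 and 299 at 24 h, against 393, 595 and 507 at 0 h. The 24 h values were nearly equal and all below the 0 h values, and the fold change was -0.71 ± 0.17 (limma, adjusted p = 0.429). SH3TC2, an endosomal adaptor known from Schwann cells, was at 46.7, 35.5 and 29.7, against 72.4, 75.5 and 74.5, also without overlap, and differed by -0.62, -1.07 and -1.30 in pigs 2, 4 and 6. The complement gene C4A was at 35.3, 78.7 and 78.8, against 105, 177 and 109 (-1.06 ± 0.60), and copies of C4 may share reads.

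SLC6A6, the taurine transporter, was at 733, 221 and 311 at 24 h, against 902, 868 and 583 at 0 h, a difference of -1.06 ± 0.45 that came to -0.60 without pig 4. FRAS1, an extracellular matrix protein of basement membranes, was at 59.0, 36.9 and 31.7, against 91.5, 220.1 and 34.8; its fold change of -1.10 ± 0.46 came to -0.38 without pig 4. SLC8A2, a sodium-calcium exchanger mainly known from brain, and MYH15, a slow-type myosin heavy chain, differed by -1.03 ± 0.39 and -1.20 ± 0.51 at low counts.

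**Figure D4:**
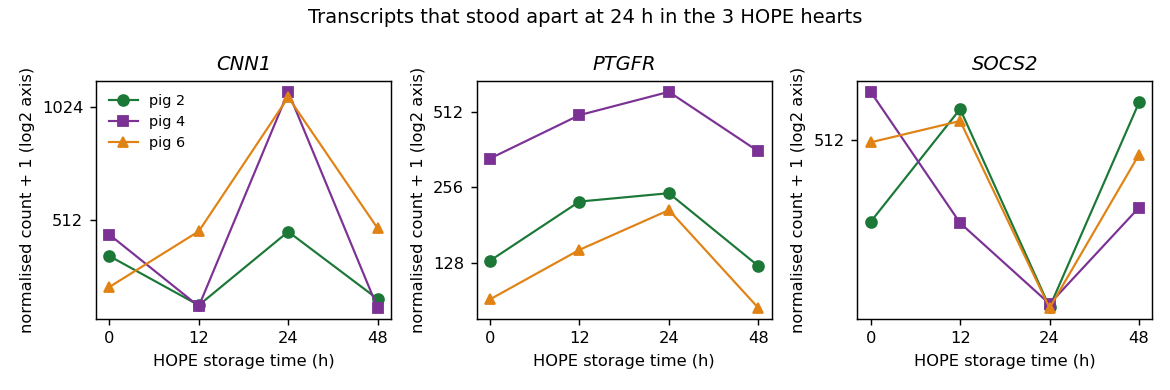
Normalised count + 1 on a log2 axis at 0, 12, 24 and 48 h of HOPE for CNN1, PTGFR and SOCS2, with a line for each of pigs 2, 4 and 6. CNN1 and PTGFR are highest at 24 h in every heart, and SOCS2 is lowest at 24 h in every heart.

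Stress-response lists showed small and uneven differences. Of 20 heat shock chaperones tested, 17 were positive, with a median of 0.27, or 0.092 without pig 6. An unadjusted p under 0.05 was found for 5 of the 20 (beside 5.49% of all genes). The cytosolic chaperone HSP90AB1 stood at 0.48 ± 0.21, the mitochondrial chaperonin HSPD1 at 0.45 ± 0.17, the co-chaperone BAG3 at 0.46 ± 0.21 and HSPB8 at 0.46 ± 0.29. Proteasome subunits, which form the protease for ubiquitin-tagged proteins, had a median of 0.20, with 25 of 28 positive, and 0.036 without pig 6. Of the 28, 5 had an unadjusted p under 0.05 (beside 5.49% of all genes). For 6 every 24 h value lay above every 0 h value (beside 2.48% of all genes). PSMD1, PSMD2 and PSMD3, subunits of the regulatory cap, differed by 0.45 ± 0.15, 0.36 ± 0.12 and 0.37 ± 0.16, each without overlap, and PSMD7 by 0.39 ± 0.15. The immunoproteasome subunit PSMB8 stood at -0.33 ± 0.19. Without pig 6 HSPB8 came to 0.066, HSP90AB1 and HSPD1 to 0.19 each and BAG3 to 0.21. PSMD1, PSMD2, PSMD3 and PSMD7 came to 0.17, 0.14, 0.085 and 0.13 without it, and PSMB8 to -0.023.

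Immediate early genes, transcribed within minutes of a stimulus, differed between hearts. EGR1, a zinc-finger factor of this group (chromosome 2, 140440829 to 140445302), was at 389.6, 620.5 and 1961 normalised counts at 24 h, against 230.3, 479 and 344 at 0 h, higher in each heart, with a fold change of 1.21 ± 0.31 (limma, adjusted p = 0.429; 0.0407 by DESeq2, with 0.0407 to 1 over the alternatives) and 0.56 without pig 6. ATF3, a stress-induced factor, was at 133, 251 and 15458, against 139, 319 and 1707, so pig 6 alone was higher at 24 h, by 3.18 on the log2 scale. NR4A1 was at 776, 1062 and 5206, against 775, 1080.4 and 1168, and FOSB at 7.05, 2.84 and 318, against 4.58, 8.38 and 28.3, again with pig 6 apart. Of 22 tested, 15 were positive, with a median of 0.31, and the median was -0.11 without pig 6.

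The cold-inducible RNA-binding genes stood near their 0 h values. CIRBP, which is induced by mild hypothermia in mammalian cells, was at 2484, 3330.1 and 3987 at 24 h, against 2791, 3310.4 and 3336 at 0 h (0.033 ± 0.11, but -0.055 with total-count scaling and -0.13 with quantile normalization), and RBM3 at 1270.0, 1920.3 and 1923, against 1253, 1875 and 2069 (-0.017 ± 0.14). The splicing factor SRSF5 stood at -0.077 ± 0.16. The 18 hypoxia-inducible genes tested had a median of -0.076, with 7 positive and 11 negative. EGLN3, an oxygen-sensing prolyl hydroxylase, and PDK1, which restrains pyruvate oxidation, stood at 0.43 ± 0.25 and 0.46 ± 0.20, while DDIT4, an inhibitor of mTORC1, and the glycolytic regulator PFKFB4 stood at -0.43 ± 0.13 and -0.38 ± 0.28.

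Genes that respond to fasting and FOXO factors had a median of -0.011, with 9 of 18 positive. DEPP1, a FOXO target of oxidative stress handling, was at 124, 162 and 473, against 177, 198 and 723, lower in each heart (-0.47 ± 0.16), as were the arrestin-like ARRDC3 (-0.40 ± 0.17) and the cyclin CCNG2 (-0.37 ± 0.17), and the insulin receptor substrate IRS2 stood at 0.41 ± 0.28. The 17 circadian clock genes had a median of 0.00089 with 9 positive: the repressor CRY2 stood at 0.56 ± 0.20, NR1D1 at 0.31 ± 0.19, RORA at 0.30 ± 0.31 and PER2 at -0.31 ± 0.16. Without pig 6 CRY2 came to 0.16, PER2 to -0.090 and IRS2 to -0.16, and without pig 4 RORA came to 0.095.

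The 13 mitochondrially encoded genes, which specify respiratory chain and ATP synthase subunits, were close to their 0 h level. Their median was 0.025, with 0.19, 0.082 and -0.18 in pigs 2, 4 and 6, 0 at an unadjusted p under 0.05, and -0.062 with total-count scaling. They took 35.2%, 35.9% and 31.8% of the counts at 24 h in pigs 2, 4 and 6, against 33.2%, 34.6% and 39.5% at 0 h. ATP8 stood at 0.30 ± 0.29, ND4L at 0.24 ± 0.29, ND5 at 0.19 ± 0.38 and ND2 at 0.10 ± 0.33 (-0.27 with quantile normalization), and ATP8 and ND4L overlap neighbouring genes with which reads may be shared.

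Cytosolic ribosomal protein genes were mostly slightly negative. Of 43 tested, 38 were negative and 20 were lower in all 3 hearts (beside 11.7% of all genes), with a median of -0.11 and -0.072, -0.17 and -0.045 in pigs 2, 4 and 6. An unadjusted p under 0.05 was found for 3 (beside 2.98% of all genes), RPL37, RPL3 and RPS18. RPL37 was at 4731, 5432 and 8937, against 4966, 7296 and 13013 (-0.35 ± 0.14). RPL3 and RPS18 differed by -0.32 ± 0.14 and -0.26 ± 0.12, while RPL38 stood at -0.23 ± 0.13. The median was -0.12 without pig 6, with 43 of 43 negative, -0.19 with total-count scaling and -0.25 with quantile normalization. The number at an unadjusted p under 0.05 was 23 with quantile normalization, all lower at 24 h, and 0 with total-count scaling or without pig 6. Ribosomal protein genes have many processed pseudogenes, so reads may be shared with copies.

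The difference in change from 0 to 24 h between HOPE and SCS was tested as an interaction term. No gene passed the adjusted threshold (0% of 14141 genes, limma), while 746 had a more positive change in HOPE (5.28%) and 696 a more negative one (4.92%) at an unadjusted p under 0.05, together 1442 (10.2%). edgeR passed 0 genes (1442 at the unadjusted threshold) and DESeq2 93, of which 31 were more positive and 62 more negative in HOPE. Within SCS, 0 genes passed for 24 h against 0 h and 1592 had an unadjusted p under 0.05 (11.3%), 5.86% of all genes higher and 5.40% lower. DESeq2's 93 included MYH6, KIF26B, IDE, CCL5, GNLY, DEPP1, NPPB and RPL37, with adjusted p of 0.00927, 0.0138, 0.0148, 0.0148, 0.0151, 0.0150, 0.00889 and 0.00463 in that order. Total-count scaling moved the median interaction of all genes to 0.30, beside 0.046 with the authors' scaling, so a list median under that scaling is read against 0.30.

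Ribosomal protein genes differed in 1 direction between the storage conditions. All 43 were more negative in HOPE, with a median of -0.52, and 32 had an unadjusted p under 0.05 (beside 4.92% of all genes); the median was -0.26 with total-count scaling and -0.46 with quantile normalization. The number at an unadjusted p under 0.05 was 0 with total-count scaling and 31 with quantile normalization. The count of 0 comes from tests against a difference of 0, while the median of all genes under total-count scaling was 0.30. That count therefore does not show how far these genes lay from the other genes. Their list medians were -0.072, -0.17 and -0.045 in HOPE pigs 2, 4 and 6, and 0.40, 0.53 and 0.30 in SCS pigs 1, 3 and 5, so the difference lay mostly in the SCS hearts. RPL37 was at 11457, 16162 and 19224 normalised counts at 24 h of SCS, against 8074, 10561 and 14566 at 0 h, and its difference in change was -0.85 ± 0.19 (limma, adjusted p = 0.269). For the mitochondrially encoded genes the median was -0.55, with 13 of 13 negative and 0 at an unadjusted p under 0.05. With total-count scaling it was -0.29, read against 0.30 for all genes. With quantile normalization it was -0.037, but that scaling gives the highest ranks the same values in every library. These genes are among the most abundant, so that value can show little of a difference. Their share of the counts was 41.2%, 45.2% and 62.1% at 24 h of SCS in pigs 1, 3 and 5, against 35.9%, 38.7% and 52.5% at 0 h. Their list medians were 0.19, 0.082 and -0.18 in HOPE hearts and 0.58, 0.41 and 0.62 in SCS hearts.

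**Figure D5:**
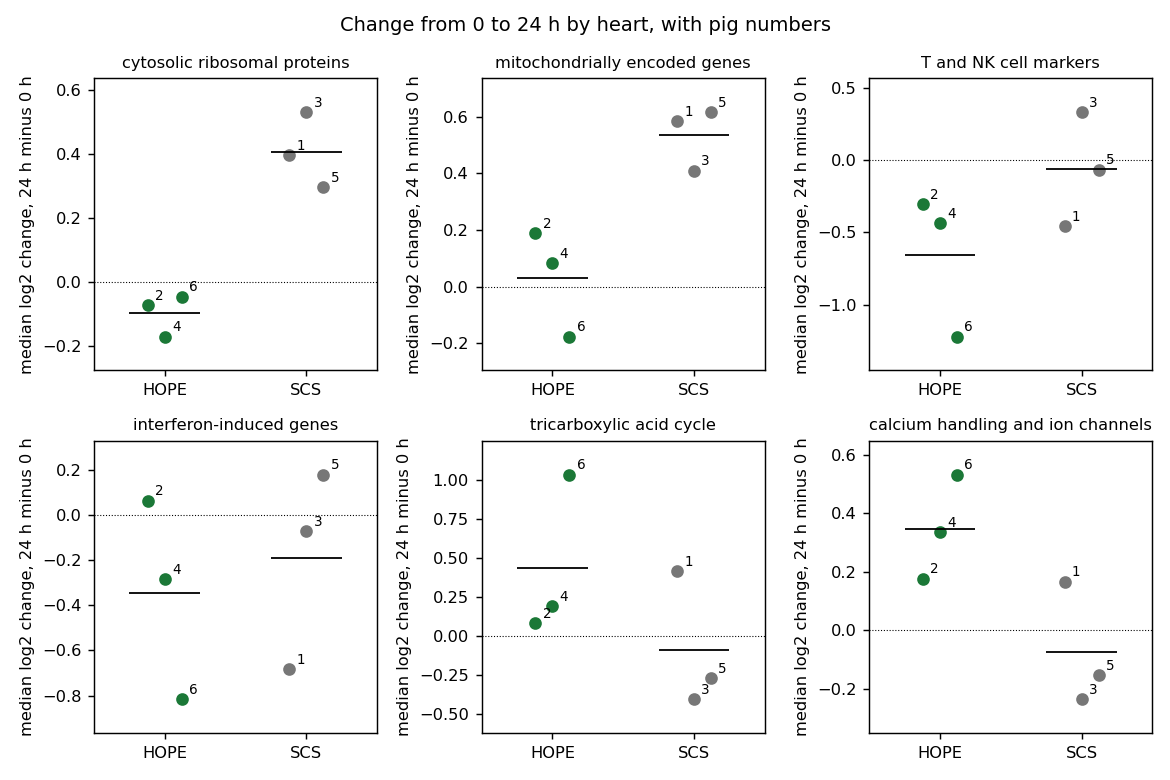
Median log2 change from 0 to 24 h over the members of 6 gene lists in each HOPE heart (left, green) and each SCS heart (right, grey), with pig numbers and a line for the mean of 3 hearts. For the ribosomal and the mitochondrially encoded genes all 3 HOPE hearts lie below all 3 SCS hearts, for the calcium genes above them, and for the other 3 lists the hearts overlap.

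Among single genes, MYH6 was at 7919, 12686 and 8968 at 24 h of SCS, against 10069, 22579 and 11772 at 0 h, and its difference in change was 1.79 ± 0.40 (limma, adjusted p = 0.269). KIF26B and IDE differed in change by 1.16 ± 0.26 and 0.72 ± 0.17 (limma, adjusted p = 0.269 for both). CCL5 was at 140.3, 651 and 473 at 24 h of SCS, against 132, 426 and 417 at 0 h, and GNLY at 531, 1094 and 331, against 335, 721 and 289. The differences in change of CCL5 and GNLY were -1.31 ± 0.31 and -1.64 ± 0.40 (limma, adjusted p = 0.269 for both). NPPB was at 1199, 312 and 217 at 24 h of SCS, against 71.7, 47.8 and 9.60 at 0 h, higher in each SCS heart, and its difference in change was -6.02 ± 1.54 (limma, adjusted p = 0.287). DEPP1 differed in change by -0.96 ± 0.22 (limma, adjusted p = 0.269).

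By list, T and NK cell markers had a median difference in change of -0.65, with 20 of 23 negative, and -0.24 without HOPE pig 6. An unadjusted p under 0.05 was found for 8 (beside 10.2% of all genes in either direction, the share for the next lists as well). Tricarboxylic acid cycle genes had a median of 0.51 with 16 of 16 positive and 4 at an unadjusted p under 0.05, or 0.24 without pig 6. Calcium handling genes had 0.42 with 20 of 24 positive and 7 at an unadjusted p under 0.05, or 0.35 without pig 6. In SCS pigs 1, 3 and 5 the list medians were -0.46, 0.33 and -0.066 for T and NK cell markers. They were 0.41, -0.41 and -0.27 for the tricarboxylic acid cycle and 0.17, -0.24 and -0.15 for calcium handling. HOPE and SCS hearts overlapped for the T and NK cell and the tricarboxylic acid cycle lists. Interferon-induced genes had a median of -0.23, but -0.0068 without pig 6, and the SCS hearts of pigs 1, 3 and 5 had medians of -0.68, -0.072 and 0.18.

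Against the neighbouring HOPE biopsies the 24 h libraries had no gene past the adjusted threshold in limma. For 24 h against 12 h, 0 genes passed and 269 had an unadjusted p under 0.05 (1.90%), of which 94 were higher (0.665%) and 175 lower (1.24%), and for 48 h against 24 h, 0 passed and 300 had one (2.12%), of which 168 were higher (1.19%) and 132 lower (0.933%; limma). By edgeR these were 0 and 286 for 24 h against 12 h, and 0 and 325 for 48 h against 24 h. Against 0 h, 559 genes (3.95%) had an unadjusted p under 0.05 at 12 h, 1.82% of all genes higher and 2.14% lower, and 0 passed the adjusted threshold. At 48 h the count was 1068 (7.55%), 4.61% higher and 2.94% lower, and 1 gene passed (0.00707%), beside 1197 and 0 at 24 h. That gene was CX3CR1, which was at 57.3, 39.3 and 30.5 normalised counts at 48 h, against 120.5, 127 and 116 at 0 h, with 88.9, 90.9 and 59.7 at 12 h and 79.3, 75.2 and 49.1 at 24 h; it fell by 1.54 ± 0.22 at 48 h (limma, adjusted p = 0.0187). All 3 comparisons share the 0 h libraries, pig 6's among them. List medians at 12, 24 and 48 h against 0 h were -0.75, -0.75 and -0.93 for T and NK cell markers, -0.44, -0.36 and -0.38 for interferon-induced genes, 0.18, 0.43 and 0.35 for the tricarboxylic acid cycle, 0.23, 0.34 and 0.25 for calcium handling and -0.14, -0.11 and -0.16 for ribosomal proteins.

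SOCS2, CNN1 and PTGFR, chosen for this pattern after their values were seen, lay apart at 24 h from the other times. SOCS2 was at 299.7, 303 and 299 normalised counts at 24 h, against 564, 392 and 542 at 12 h, and 575, 412 and 487 at 48 h; the differences were -0.71 ± 0.17 for 24 h over 12 h and 0.69 ± 0.17 for 48 h over 24 h. CNN1 was at 477, 1119.7 and 1084 at 24 h, against 304, 302 and 478 at 12 h, and at 316, 299 and 487 at 48 h, with differences of 1.24 ± 0.30 and -1.22 ± 0.30. Over 0 h CNN1 differed by 0.21, 1.26 and 1.67 in pigs 2, 4 and 6, so pig 2 was little apart. PTGFR was at 123, 355 and 83.7 at 48 h, close to its 0 h level, and differed by -1.01 ± 0.22 for 48 h over 24 h. In limma the adjusted p of these differences was 0.999 for 24 h over 12 h and 1.00 for 48 h over 24 h.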

How the data were processed

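RNA was sequenced from flash-frozen myocardial biopsies. Per the submitters' processing notes, which give no roles, the tools were STAR 2.5.2b, HISAT2 2.2.1, Subread 1.5.2, featureCounts 2.0.6, Trimmomatic 0.36, bcl2fastq 2.17, FastQC and DESeq2, and the build Sscrofa11.1; which tool served which arm, and whether strand was used in counting, are not given in the sources used here. The deposited values are a signal, gene counts that the authors divided by a size factor per library, and nearly all were whole multiples of 1 read within a tolerance of 1e-06, which gave the recovered reads. The table of the second arm (7 libraries) was not used here.

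Genes with a mean of at least 10 normalised counts over the 24 libraries were tested on log2(value + 1) with limma 3.58.1 (R 4.3.3), with a mean trend, the pig as a block (12 residual degrees of freedom) and Benjamini-Hochberg adjustment over 14141 genes at 0.05. All 24 libraries share the estimate of the spread. The numbers pair the samples because the titles name the same pig at each time, and same-pig deviations at 24 h and 0 h correlated at 0.46, 0.49 and 0.46 across genes, against -0.43 to 0.038 for different pigs. edgeR 4.0.16 and DESeq2 1.42.0 on the recovered reads were alternatives, with other scalings, pseudocounts, filters and left-out hearts, and the fit was tested on simulated data.

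Genes named are the 10 highest and 10 lowest fold changes among genes with a symbol, a mean of at least 50 and 1 direction in all 3 pigs, the 10 smallest p values, and up to 4 members with the largest difference of each of 22 lists described (of 43), with a few fixed genes; others are said to be chosen after their values were seen. Some genes that meet this rule are not reported here. The members and lists were chosen with earlier results of these data known. Symbols came from the table (14365) and the reference (109), and coordinates from RefSeq on Sscrofa11.1, by symbol. Biopsies of 1 pig are not separate animals, and 3 hearts a condition limit the precision, whatever the depth.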

Additional observations from a re-analysis of the deposited data

How the results depend on the processing

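The count of genes past the adjusted threshold for HOPE 24 h against 0 h was 0, and it was 0 in 10 of the 13 alternatives other than leaving out a pig. Exceptions were total-count scaling with 1 (HBB), DESeq2 with 5 (IDE, MAP4, MYH6, EGR1 and DCAF8, the last at 0.45 and named after its values were seen) and leaving out the 0 h library of pig 6, an alternative chosen after seeing the data, with 1. That gene was PADI2, named after its values were seen, at -1.99 (limma, adjusted p = 0.026); leaving out each pig gave 0 to 1, again PADI2 without pig 6. For the difference in change between HOPE and SCS, DESeq2 gave 93 and leaving out each pig 0. For 24 h against 12 h and for 48 h against 24 h, DESeq2 gave 1 each, a gene with no symbol (ENSSSCG00000041980) listed at 0 or below 1 in the HOPE libraries; leaving out each pig gave 0 for 24 h against 12 h and 0 to 1 for 48 h against 24 h, the 1 being MBP without pig 2. The cause was not tested.

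Without the pig as a block, 0 genes passed in each of the 4 comparisons; 215 genes had an unadjusted p under 0.05 for 24 h against 0 h, 260 for the difference in change, 78 for 24 h against 12 h and 81 for 48 h against 24 h. The block changed no call. With the block kept, the unadjusted count for 24 h against 0 h ranged from 389 without pig 6 to 1832 with the HOPE libraries alone, beside 1197. It was 518 with total-count scaling, 715 with the compared groups alone and 642 without the 0 h library of pig 6.

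Of the named genes' values, 1385 kept their sign and side of the threshold over the alternatives other than leaving out a pig, 5 passed the threshold and 6 changed sign. CIRBP was at -0.055 with total-count scaling, -0.13 with quantile normalization and -0.017 without the 0 h library of pig 6, ND2 at -0.27 with quantile normalization, and MS4A7 and RBM3 at -0.059 and 0.023 without that library. With each pig left out, the values ranged for ACTA2 from -0.021 to 0.92, MYH11 from -0.079 to 1.31, ATF3 from -0.20 to 1.56, CIRBP from -0.080 to 0.13, FOSB from -0.38 to 1.99, IRS2 from -0.16 to 0.70, NR4A1 from -0.011 to 1.08, RBM3 from -0.043 to 0.027 and SRSF5 from -0.17 to 0.047. Total-count scaling moved the median of all genes to -0.069 for 24 h against 0 h and to -0.14 for 24 h against 12 h.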

Other observations

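The other 21 gene lists held 276 tested members. Of these, 23 had an unadjusted p under 0.05 for HOPE 24 h against 0 h, near the share over all genes (8.46%). The adjusted threshold was passed by 0 (limma, and edgeR and DESeq2 called 0 of them as well). Glycolysis and glucose uptake genes had a median log2 fold change of 0.27, with 16 of 20 positive. An unadjusted p under 0.05 was found for 4 (beside 5.49% of all genes higher). Their list medians were 0.081, 0.014 and 0.79 in pigs 2, 4 and 6. Nuclear-encoded respiratory chain and ATP synthase genes had a median of 0.15, with 34 of 41 positive and list medians of -0.039, 0.0077 and 0.47. Leukocyte adhesion and endothelial activation genes had a median of -0.22, with 12 of 14 negative, and list medians of 0.10, -0.024 and -0.72. In these 3 lists pig 6 was the heart farthest from 0.

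Collagens and matrix genes had a median of 0.023 and fibroblast markers of -0.0073, with 8 of 16 positive. Genes of the NRF2 and antioxidant response, p53 targets and the unfolded protein response had medians of -0.0043, -0.0024 and -0.079. Cycling cell markers had a median of -0.25 over 13 genes and B and plasma cell markers of -0.28 over 4. The lowest list median was -0.93 for 2 epicardial and mesothelial markers and the highest 0.40 for 3 skeletal muscle markers. For fibroblast markers the difference in change, HOPE minus SCS, had a median of -0.51, and the SCS median was 0.48. An unadjusted p under 0.05 for that difference was found for 3 of 16 (beside 10.2% of all genes in either direction).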
